A study of Caenorhabditis elegans with 4 samples.

Results

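The regions described here are the stretches of the Caenorhabditis elegans X chromosome that were called in both replicates of a chromatin immunoprecipitation (ChIP) sequencing experiment on NHR-237, a member of the nuclear hormone receptor family, in larvae at the L2 stage. A region was taken when an X region of the replicate 1 list shared at least 1 bp with an X region of the replicate 2 list, and taken regions that overlapped each other were merged. This gave 505 regions on X of 3033 on all nuclear chromosomes, the other 2528 being autosomal. The rule used position only and no score.

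The series has 2 ChIP samples and 2 input samples, replicates 1 and 2 of each, all from hermaphrodites of strain OP228. Its genotype combines unc119(ed3) with the transgene wgIs228, which was delivered by bombardment, carries unc119, and expresses NHR-237 fused to TY1, EGFP and FLAG tags. Every sample carries it, so that no immunoprecipitate from worms without the fusion was among the samples. Larvae were grown at 20 °C and fixed with 2% formaldehyde, and fusion-bound DNA was recovered with anti-GFP antibodies. Whole larvae were used, so binding in few cells and weak binding in many cells cannot be told apart, and nothing in the labels tells whether separate cultures gave the replicates.

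Nuclear hormone receptors bind DNA through a zinc finger domain, and many respond to small lipophilic ligands. The family is much enlarged in nematodes. The X chromosome of C. elegans hermaphrodites is also a special chromatin environment, because the dosage compensation complex, which contains a condensin, is loaded there at recruitment sites called rex and spreads along the chromosome, lowering transcription of X genes. Positions of rex sites and of genes on the WS220 build of the files were not used here, so no region below is assigned to a gene, an exon, a promoter or a rex site, and no DNA sequence is shown.

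The deposited data are 3 lists of regions with positions on WS220. The replicate 1 list held 1453 X regions among 8323 nuclear ones (17.5%), the replicate 2 list 3700 among 21482 (17.2%), and the combined list of the series 66 among 322 (20.5%). In each list a region carries a score and an order number, called its place below, with place 1 read as the strongest. Scores do not always fall with place, as the X regions at places 231 and 253 of the combined list had 2.21 and 2.25. The word strongest below refers to place. Places count every region of a list, mitochondrial ones included. Scores of the replicate lists were read as the −log10 of a q value. The lists hold no read counts, so the depth is unknown, and the input samples had no values analysed here.

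Most shared X regions were weak calls, and those in the combined list were much better placed than the rest. The 62 shared regions that overlapped the combined list had median places of 110.5 in replicate 1 and 136 in replicate 2, while the 443 outside it had median places of 3830 and 8052. The combined list was made from the same samples, so this difference describes its selection and is no separate support for its regions. The share of shared X regions found in the combined list was 12.3% (95% Wilson interval 9.70 to 15.4%), against 10.2% of all 3033 shared nuclear regions and 9.77% of the autosomal ones (8.67 to 10.99%). The difference between X and the autosomes was 2.51 percentage points with a 95% Newcombe interval of −0.348 to 5.84, which includes 0. All intervals here cover counting error only and treat neighbouring regions as independent.

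A q value no higher than 0.05 in each replicate was reached by 44 of the 505 X regions (8.71%, interval 6.55 to 11.5%), where 6.76% of all shared nuclear regions reached it and 161 of 2528 autosomal regions did (6.37%, 5.48 to 7.39%). The difference was 2.34 points (−0.0430 to 5.26). All 44 X regions were in the combined list, as were 157 of the 161 autosomal ones, so this was not particular to X. A further 33 X regions reached the limit in replicate 1 only and 22 in replicate 2 only, which left 406 that reached it in neither. In at least 1 replicate it was reached by 19.6% of X regions (16.4 to 23.3%), where 16.5% of all shared nuclear regions and 15.9% of autosomal ones (14.5 to 17.4%) reached it, and this difference of 3.70 points had an interval above 0 (0.152 to 7.64). The median q value of shared X regions was 0.812 in replicate 1 and 0.694 in replicate 2, so most of them were weak calls in both lists.

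The 17 X regions within the first 25 places of the combined list are given here from left to right, each with its WS220 position, its width and its places and widths in the replicate lists. The limit of 25 places was chosen with earlier results of these data known. The places of X regions show no break there, as they run 20, 22, 25, 31 and 34. The strength of the 17 is therefore a description and not a tested result.

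The leftmost lay at X 806501 to 806843 (343 bp, place 12 of the combined list), with a 253 bp region at place 11 in replicate 1 and a 504 bp region at place 24 in replicate 2. A pair of neighbours followed, X 1344902 to 1345215 (314 bp, place 22; replicate places 22 and 45) and X 1389520 to 1389707 (188 bp, place 25; replicate places 29 and 38), whose centres were 44.6 kb apart. This was the shortest distance between any of the 17. At X 1626946 to 1627314 (369 bp, place 14), the partners were 284 bp wide at place 16 in replicate 1 and 226 bp wide at place 19 in replicate 2, with the same centre in both lists. The left end of X thus carried 4 of the 17 regions within the first 10% of its length.

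Further in, X 2996853 to 2997339 (487 bp, place 7) had partners of 335 bp at place 8 and 256 bp at place 13 of the replicate 1 and 2 lists, and was the widest of the group. Next came X 4209049 to 4209435 (387 bp, place 5), called over 338 bp at place 7 in replicate 1 and over 264 bp at place 9 in replicate 2. X 5429362 to 5429618 (257 bp, place 20) had a 175 bp partner at place 21 in replicate 1 and one of 504 bp at place 32 in replicate 2. These 3 regions were more than 1 Mb from each other.

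X 6296317 to 6296792 (476 bp, place 4) was called over 399 bp at place 2 in replicate 1 and over 259 bp at place 5 in replicate 2. The middle of the chromosome then held X 8036194 to 8036564 (371 bp, place 13; 285 bp at place 13 and 212 bp at place 20 of the replicate lists) and X 9465606 to 9465995 (390 bp, place 2; 291 bp at place 4 and 303 bp at place 3). These last 2 regions flank the longest stretch of X without a combined region.

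The strongest region of the combined list, X 11093905 to 11094335 (431 bp), was 384 bp wide at place 1 in replicate 1 and 317 bp wide at place 2 in replicate 2, with centres 7.50 bp apart. Place 1 of the replicate 2 list lies on mitochondrial DNA, so this region headed the nuclear regions of both lists. It was followed by X 11937329 to 11937628 (300 bp, place 9; 490 bp and 187 bp in the replicate lists, place 14 in both) and X 12362963 to 12363292 (330 bp, place 11; 258 bp at place 10 and 504 bp at place 22). These 3 regions made the seventh of 10 equal parts of X the richest in strong regions after the leftmost part.

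On the right side lay X 13700597 to 13700989 (393 bp, place 3), with partners of 257 bp at place 3 in replicate 1 and 277 bp at place 4 in replicate 2, and X 14525599 to 14526070 (472 bp, place 8), with partners of 346 bp at place 5 and 269 bp at place 18. X 16056320 to 16056703 (384 bp, place 6) was called over 299 bp at place 6 in replicate 1 and 235 bp at place 10 in replicate 2. The last, X 16681907 to 16682219 (313 bp, place 15), had 215 bp at place 9 and 504 bp at place 34. In 15 of the 17 cases the place was better in replicate 1, in 1 it was equal and in 1 it was better in replicate 2. Places include mitochondrial regions, which push nuclear regions back by different amounts in the lists. The first 100 places held 29 X and 64 autosomal regions in replicate 1, against 26 and 57 in replicate 2. These counts therefore do not show that the sites were stronger in replicate 1.

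The replicates placed these 17 regions at nearly the same positions. The distance between the centres of the best placed partners had a median of 15 bp and a maximum of 73.5 bp. For the 49 X regions after place 25 of the combined list it was 37.0 bp (maximum 372 bp). Over all 505 shared X regions the median was 125 bp, and over the 2528 autosomal ones 140 bp. The 8 autosomal regions in the first 25 places had a median of 19.25 bp (maximum 38 bp). Offsets were therefore smaller for better placed regions. The 17 X regions had median widths of 291 and 277 bp in the replicate lists, against 490 and 504 bp for the 49. Narrower regions that overlap leave less room for an offset, and the combined list was made from these samples. A difference in alignment apart from this was not tested.

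**Figure D1:**
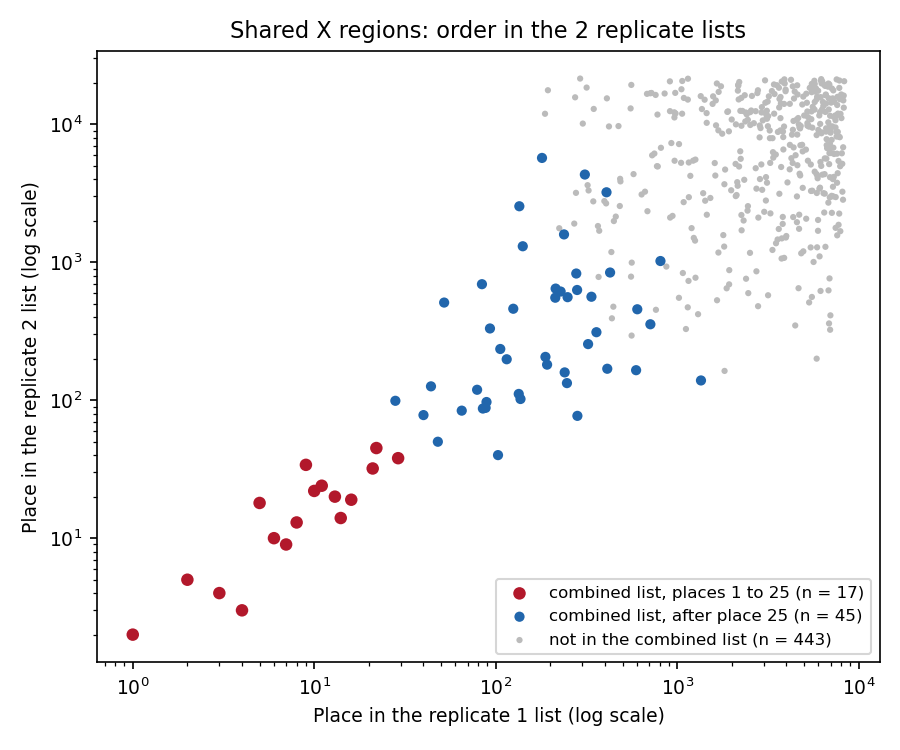
Each point is a shared X region, with its place in the replicate 1 list on the x axis and in the replicate 2 list on the y axis (both log scales, place 1 read as the strongest). The 17 regions from the first 25 places of the combined list all lie within the first 29 places of replicate 1 and 45 of replicate 2, and the 443 regions outside the combined list fill the corner of late places.

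Across the shared X regions, places in the lists had a Spearman's rho of 0.385 (505 regions, across regions of the same libraries, no test). Within the 62 regions of the combined list rho was 0.784, and without those of its first 25 places it was 0.445 (45 regions). With scores in place of places, which tie at the highest value for most X regions of the combined list, rho was 0.381 over the 505 regions, 0.375 over the 62 and 0.236 over the 45. The corresponding autosomal values for places were 0.347 over 2528 regions, 0.317 over 247 and 0.247 over 239, and for scores they were 0.348, −0.0186 and −0.0406. For the 443 X regions outside the combined list rho was 0.127, so the order of weak regions was barely shared between replicates. The combined list was made from the same samples, and membership in it selects for agreement.

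X was the only chromosome at places 1 to 9 of the combined list, and it held 14 of the first 15 places. This lead rests on the order numbers and is not seen in the scores. Of the 230 combined regions that share the highest score 47 were on X, where X held 66 of all 322 (20.5%). In the replicate 1 and 2 lists X held 56 of 271 and 44 of 236 regions with the highest score. After place 25 its share was near the 17.7% that X makes up of the nuclear span. Places 26 to 50 held 5 X regions of 25 (20%, interval 8.86 to 39.1%), places 51 to 100 held 8 of 50 (16%, 8.34 to 28.5%), places 101 to 200 held 14 of 100 (14%, 8.53 to 22.1%) and places 201 to 322 held 22 of 122 (18.0%, 12.2 to 25.8%). The shared regions, taken by the poorer of their places in the lists, declined more gradually. Of the 17 shared nuclear regions with a place of 25 or better in each replicate list, 13 were on X (76.5%, 52.7 to 90.4%). Between places 26 and 50 X had 5 of 14 (35.7%, 16.3 to 61.2%), between 51 and 100 6 of 27 (22.2%, 10.6 to 40.8%), between 101 and 200 7 of 49 (14.3%, 7.10 to 26.7%) and between 201 and 500 12 of 98 (12.2%, 7.14 to 20.2%). Over all shared regions it was 16.7%.

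The lists also give widths, which went with place and are no separate measure of strength. Most regions have a fixed width in each list, 536 bp in the combined list, 490 bp in replicate 1 and 504 bp in replicate 2, and only some have narrower bounds of their own. Of the combined regions on X, 21 of 66 were narrower than 536 bp (31.8%, interval 21.9 to 43.8%), against 13.7% in the whole list and 23 of 256 on the autosomes (8.98%, 6.06 to 13.1%). The difference was 22.8 points (12.04 to 35.2). Narrow regions of both kinds lay mainly among the first places, where X is concentrated. Within the first 25 places all 17 X regions and all 8 autosomal regions were narrow, the widest being 487 and 324 bp, so the share did not differ there. After place 25 the median width was 536 bp on both X and the autosomes. A difference beyond that in place was not tested.

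The narrow X regions formed an unbroken run. The first 19 X regions of the combined list, through place 34, were all narrower than 536 bp, and from place 44 on each X region had the usual width except for 2 that repeat an interval of a stronger region. On the autosomes 11 narrow regions came before the first of usual width, at place 29, and 12 after it. Among X regions of the first 25 places the width ranged from 188 to 487 bp with a median of 371 bp. The 8 autosomal regions in the same places were 166 to 324 bp wide (median 260 bp).

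Narrow bounds were rarer in the replicate lists, and there too many of them were on X. In replicate 1, 18 of the 1453 X regions were narrower than 490 bp (1.24%, 0.785 to 1.95%), against 0.300% of all nuclear regions and 7 of 6870 autosomal ones (0.102%). In replicate 2 the numbers were 11 of 3700 X regions (0.297%, 0.166 to 0.532%), against 0.0605% of nuclear regions and 2 of 17782 autosomal ones (0.0112%). The differences were 1.14 points (0.670 to 1.85) and 0.286 points (0.152 to 0.520). Here too width went with place. Narrow regions had median places of 9.5 on X and 20 on the autosomes in replicate 1, and 10 and 17 in replicate 2. The differences were not tested at matched places. The 11 narrow X regions of replicate 2 all overlapped the 17 regions listed above, as did 17 of the 18 in replicate 1. The exception, X 2364808 to 2365015, belongs to the combined region at place 31.

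**Figure D2:**
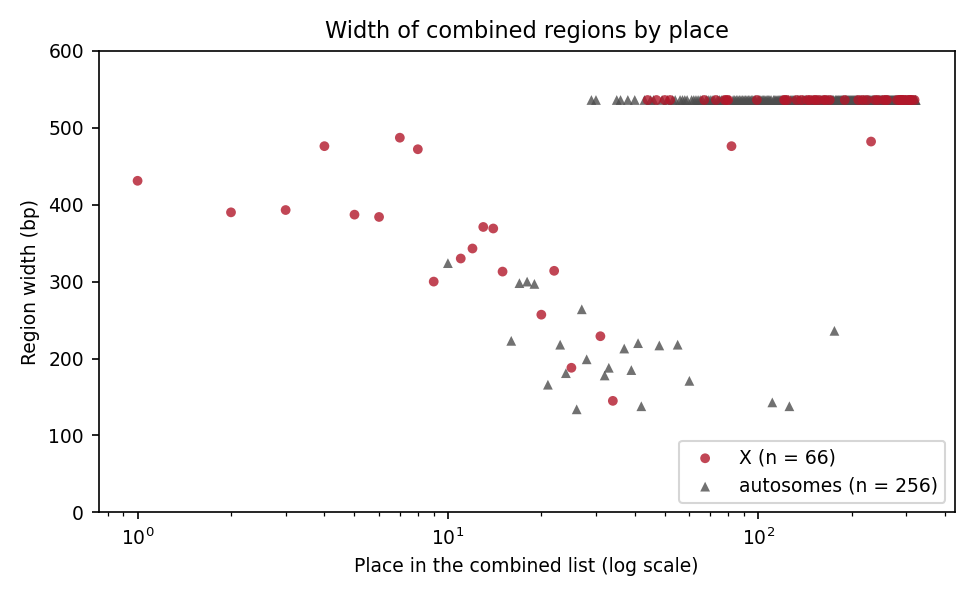
Width in bp of each combined region (y axis, from 0) against its place in the combined list (x axis, log scale), for X (circles) and the autosomes (triangles). The X regions through place 34 lie between 145 and 487 bp, and nearly all later ones sit at the usual 536 bp.

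The 5 X regions that follow the first 17 in the combined list mark this change. X 2364790 to 2365018 (229 bp, place 31) and X 11605821 to 11605965 (145 bp, place 34) were still narrow, with replicate places 28 and 99 for the left region and 40 and 78 for the right one. X 5840970 to 5841505 (place 44; replicate places 48 and 50), X 13514224 to 13514759 (place 47; 44 and 126) and X 1909294 to 1909829 (place 50; 103 and 40) had the usual 536 bp. All 5 had the lowest q value of each replicate list, 0.00185 and 0.00212, as had the 17 before them. The score therefore does not separate the regions on either side of place 25.

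Some of the 66 combined X regions are the same site listed more than once, and 62 remain when the 4 overlapping pairs are merged. The interval X 6296317 to 6296792 appears at places 4 and 82. X 14525599 to 14526080, at place 231, begins where the region at place 8 begins and ends 10 bp further right. X 1909493 to 1910028 (place 307) overlaps the region at place 50 by 337 bp, and X 11605844 to 11606379 (place 170) overlaps the narrow region at place 34 by 122 bp. Counts over the combined list include these repeats unless merged regions are named.

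A further 4 neighbouring merged regions lay within 5 kb of each other without touching. The strongest region of X had a companion at X 11095333 to 11095868 (place 157), with centres 1480 bp apart. X 11603359 to 11603894 (place 190) stood 2266 bp from the region at place 34. The other pairs were X 16929437 to 16929972 with X 16930524 to 16931059 (places 78 and 308, 1087 bp apart) and X 4145027 to 4145562 with X 4142173 to 4142708 (places 260 and 300, 2854 bp apart). Of the 17 strongest X sites, 1 thus had another separate combined region within 5 kb.

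Along the chromosome the shared X regions were more frequent towards both ends. The outermost 25% of the span held 141 of 505 regions on the left (27.9%, interval 24.2 to 32.0%) and 156 on the right (30.9%, 27.0 to 35.0%), and the 25% on either side of the midpoint held 104 each (20.6%, 17.3 to 24.3%). In 10 equal parts from left to right, the counts were 58, 58, 49, 38, 42, 33, 47, 53, 61 and 66. The lowest count, 33, was just right of the midpoint, and the highest was at the right end.

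The middle 50% of X held 208 of 505 shared regions (41.2%, 37.0 to 45.5%), against 47.0% of all shared nuclear regions and 1219 of 2528 on the autosomes (48.2%, 46.3 to 50.2%). The difference from the pooled autosomes was −7.03 points (−11.7 to −2.27). It was not particular to X when chromosomes were taken separately, since chromosome III had 42.4% of its shared regions in its middle (38.4 to 46.5%), while chromosomes I, II, IV and V had 48.2 to 51.0%. Regions of a single list leaned less to the ends. In replicate 1, 45.6% of X regions were in the middle (43.1 to 48.2%), against 48.7% of autosomal regions, and in replicate 2, 46.1% on X (44.4 to 47.7%) against 47.0% on the autosomes.

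Regions in the middle of X were also found again less often. Of the replicate 1 regions in the middle 50% of X, 233 of 663 overlapped a replicate 2 region (35.1%, 31.6 to 38.9%), and of those in the outer 50%, 323 of 790 did (40.9%, 37.5 to 44.4%). The difference, middle minus outer, was −5.74 points (−10.7 to −0.727). The replicate 2 list also held fewer X regions in the middle, 1704 against 1996 in the outer part, and the part of this in the difference was not tested. Seen from replicate 2 it was −3.33 points (−5.69 to −0.945), with 14.6% in the middle and 17.9% in the outer part. On the autosomes the shares of replicate 1 regions found again were 39.9% in the middle and 40.3% in the outer part. Between X and the autosomes the middle share differed by −4.80 points (−8.71 to −0.738) and the outer share by 0.574 points (−3.18 to 4.39).

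For the combined regions on X no lean away from the middle was established. Of the 66, 26 were centred in the middle 50% (39.4%, 28.5 to 51.5%), against 47.8% of the whole combined list and 128 of 256 autosomal regions (50.0%, 43.9 to 56.1%), and the difference of −10.6 points had an interval of −23.1 to 2.90. Chromosome V, with 28 of 39 combined regions in its middle (71.8%, 56.2 to 83.5%), raised the autosomal share. Without it the autosomes had 100 of 217 (46.1%, 39.6 to 52.7%) and the difference was −6.69 points (−19.4 to 7.01), an alternative chosen after the values were seen. In the 322 strongest regions of replicate 2 alone and of replicate 1 alone the difference was −16.4 points (−28.8 to −2.52) and −15.8 points (−27.8 to −2.59), so the call depended on the list. From the left, the successive 25% stretches of X held 19, 9, 17 and 21 combined regions. The second stretch, left of the midpoint, was the emptiest, and the seventh of 10 equal parts was the fullest with 13. The 17 strongest were spread as 6, 3, 4 and 4 over the same stretches, and each of the 10 equal parts held at least 1 of them.

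**Figure D3:**
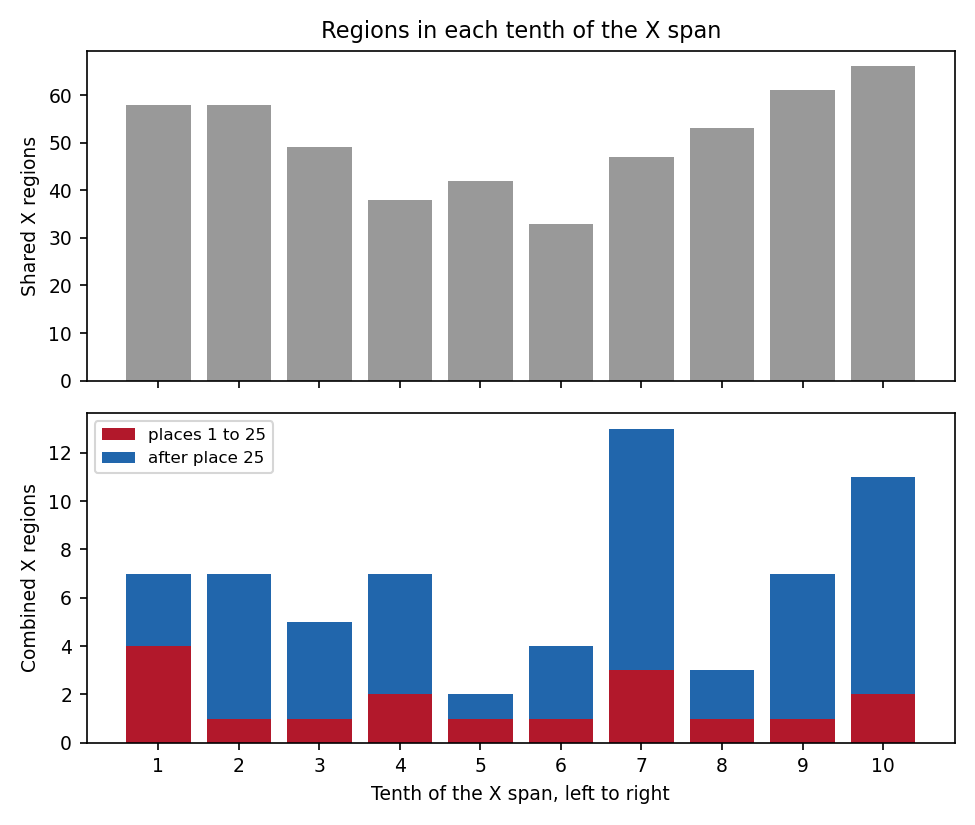
Counts of regions in 10 equal parts of the X span, left to right (x axis). The upper bars are the 505 shared regions, lowest at 33 right of the midpoint and highest at 66 at the right end; the lower bars are the 66 combined regions, stacked as places 1 to 25 and later places, with the 17 strongest present in every part.

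**Figure D4:**
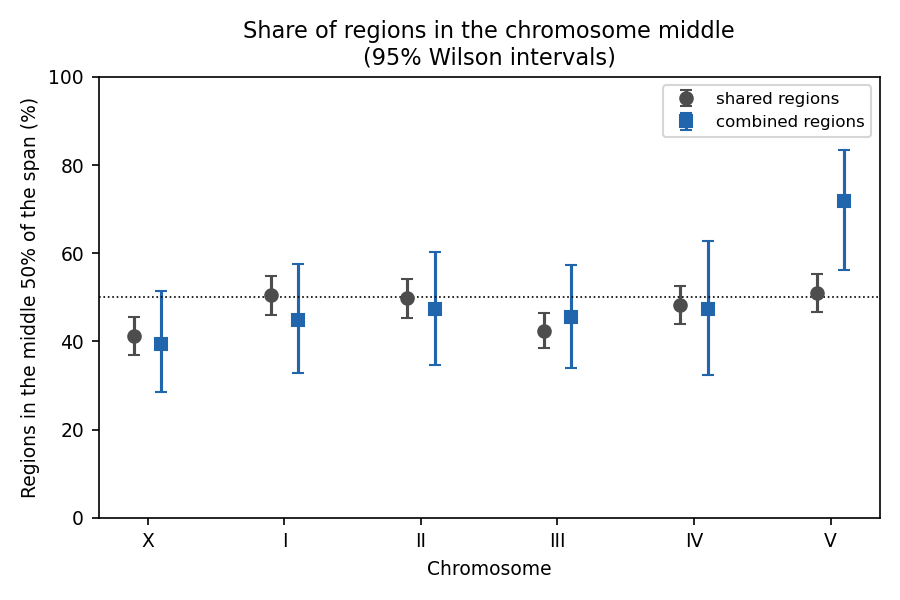
Percentage of regions centred in the middle 50% of each chromosome (y axis), for shared regions (circles) and combined regions (squares), with 95% Wilson intervals; the dotted line marks 50%. X stands at 41.2% and chromosome III at 42.4% for shared regions, below the other 4 chromosomes.

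The strong regions were widely spaced. The 16 gaps between centres of the 17 strongest had a median of 1040 kb and ranged from 44.6 to 1740 kb, and 8 of them were longer than 1000 kb. Between the 62 merged combined regions on X the median gap was 191 kb (middle 50% from 64.0 to 356 kb), against 214 kb between the combined regions of the autosomes (75.3 to 430 kb). Shared regions of any strength were 22 kb apart on X and 19.4 kb apart on the autosomes at the median. In regions per Mb this was 28.5 on X and 30.6 on the autosomes. Chromosomes IV at 28.8 and V at 24 per Mb were close to X or below it.

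The longest stretches of X without a combined region still held weak shared regions. Between X 8036564 and X 9465606, 1429 kb, there were 29 of them, or 20.3 per Mb, the best at place 187 in replicate 1 and 560 in replicate 2. The stretch from X 12363292 to X 13514224 (1151 kb) held 35, or 30.4 per Mb, and that from X 3100272 to X 4142173 (1042 kb) held 22, or 21.1 per Mb. The average over all shared X regions was 28.5 per Mb. It includes the 62 that overlap the combined list, and the stretches were chosen to hold none of these. Their densities are therefore no like comparison with that average. At the ends, the first combined region began at X 409963, and the last ended at X 17544731, of a span of 17717082 bp.

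Around the strongest X sites other regions were about as dense as on X as a whole. Within 500 to 5000 bp of their centres the replicate 1 list had 11 regions around 8 of the 17 sites, or 0.0719 per kb (95% exact Poisson interval 0.0359 to 0.129), close to the mean of 0.0820 per kb over X. Around the 45 later combined sites of X it had 62 regions, or 0.153 per kb (0.117 to 0.196), above that mean. Around the 241 later autosomal sites it had 0.154 per kb (0.138 to 0.171), where the autosomal mean was 0.0833. The 8 autosomal sites within the first 25 places had 13 such regions, or 0.181 per kb (0.0961 to 0.309).

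In replicate 2 the 17 strongest X sites had 29 regions at that distance around 15 of the sites, or 0.190 per kb (0.127 to 0.272), against a mean over X of 0.209. The later X sites had 0.272 per kb (0.223 to 0.327) around 40 of 45, the later autosomal sites 0.307 (0.284 to 0.331), and the 8 strong autosomal sites 0.361 (0.236 to 0.529). The difference between the strong and the later X sites was not tested. The site at X 1344902 to 1345215 had no region at this distance in either list. Among all neighbours of the 17 sites, the best placed were at place 213 in replicate 1, beside the strongest site, and at place 275 in replicate 2, X 2996089 to 2996592, 756 bp from the site at place 7.

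**Figure D5:**
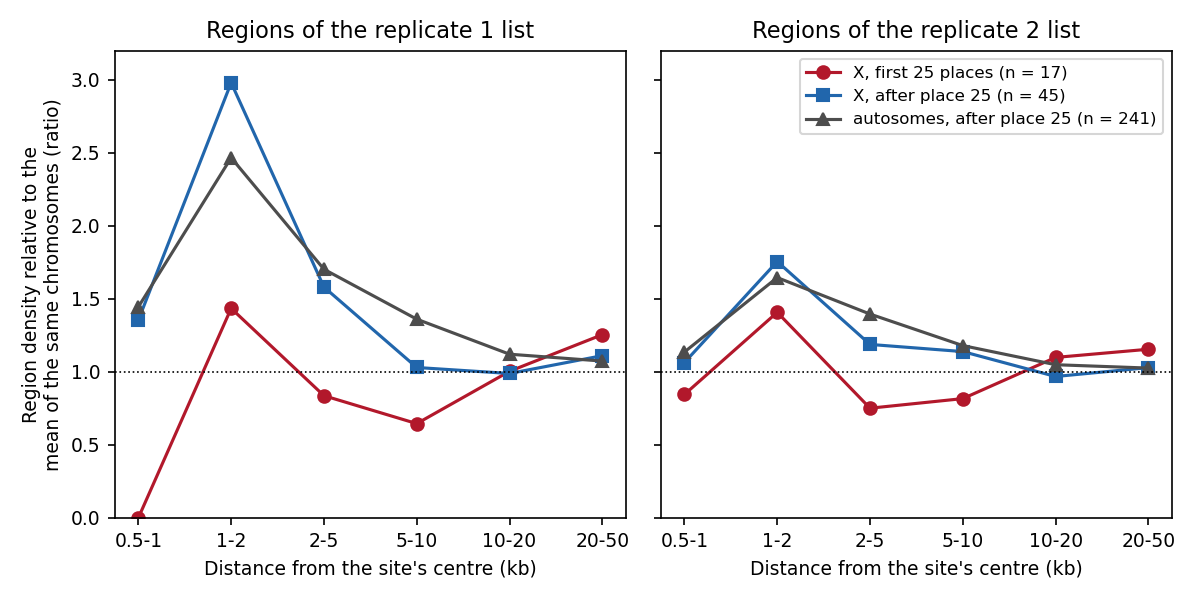
Density of replicate 1 regions (left) and replicate 2 regions (right) by distance from the centres of combined sites in kb, divided by the mean density of the same chromosomes (y axis, dotted line at 1). Sites of X in the first 25 places (circles, 17 sites) stay below the later X sites (squares, 45) and later autosomal sites (triangles, 241) from 0.5 to 10 kb, and from 10 to 50 kb the curves come close to each other; points of the 17 sites rest on few regions (0 to 9 in replicate 1 up to 10 kb).

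How far X regions were found again depended on their place in the list and was similar to the autosomes. Found again means an overlap of at least 1 bp with any region of the other list. The replicate 2 regions covered 1737 kb of the 17.7 Mb span of X, so some overlaps can arise without a repeated site. Their number was not estimated. Of the 1453 replicate 1 regions on X, 556 overlapped a replicate 2 region (38.3%, 35.8 to 40.8%), against 39.8% of all nuclear regions and 2757 of 6870 on the autosomes (40.1%, 39.0 to 41.3%). The difference was −1.87 points (−4.59 to 0.912). Within the first 100 places all 29 X regions were found again, and of the 40 at places 101 to 322, 35 were (87.5%, 73.9 to 94.5%). The share was 55.4% at places 323 to 1000, 37.1% at places 1001 to 3000 and 32.4% after that. In these 5 steps the interval of the difference between X and the autosomes included 0.

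From replicate 2, 605 of 3700 X regions overlapped a replicate 1 region (16.4%, 15.2 to 17.6%), against 16.9% of all nuclear regions and 17.0% of autosomal ones. All 26 X regions in its first 100 places were found again, as were 21 of 32 at places 101 to 322 (65.6%, 48.3 to 79.6%). On the autosomes these were 57 of 57 and 137 of 189 (72.5%, 65.7 to 78.4%). The share was 43.1% on X and 39.9% on the autosomes at places 323 to 1000, and 12.3% on X and 13.7% on the autosomes after place 8344. In all 6 steps of this list the interval of the difference included 0. Of the X regions with a q value no higher than 0.05, 82 of 93 in replicate 1 and 70 of 103 in replicate 2 had a partner of any strength in the other list. These shares of 88.2% in replicate 1 and 68.0% in replicate 2 were close to those of all nuclear regions, 88.9 and 66.1%, and the differences from the autosomes were −0.992 points (−9.63 to 5.40) and 2.28 points (−8.16 to 11.7).

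Calls at this q value without a partner made up 11.1% of the nuclear ones in replicate 1 and 33.9% in replicate 2. On X they numbered 11 of 93 in replicate 1, the best placed being X 8477365 to 8477854 (place 182), X 2559495 to 2559984 (place 234) and X 2809586 to 2810075 (place 273), with q values of 0.00185, 0.00185 and 0.00917. In replicate 2 they numbered 33 of 103 on X, led by X 4152880 to 4153383 (place 218), X 9540213 to 9540716 (place 239) and X 5810827 to 5811330 (place 244), with q values of 0.00212, 0.00629 and 0.0103. No X region placed better than 182 in replicate 1 or 218 in replicate 2 was without a partner.

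Of the shared X regions outside the combined list, the 5 with the smallest sum of places each reached a q value of 0.05 in 1 replicate only. X 1888328 to 1888817 stood at place 437 in replicate 1 (q = 0.0516) and 392 in replicate 2 (q = 0.0421). X 7823005 to 7823698 had places 561 and 294 (q = 0.122 and 0.0290), and X 6748404 to 6749297 had places 445 and 476 (q = 0.0574 and 0.0473), although its best partners were 624 bp apart. X 4523790 to 4524279 had places 369 and 782 (q = 0.0231 and 0.0915). X 4210671 to 4211160, at places 764 and 452 (q = 0.221 and 0.0432), lies 1674 bp from the site at place 5 of the combined list. None of these 5 could have reached a q value of 0.05 in both replicates, because every shared X region that did was in the combined list.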

How the data were processed

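The ChIP of each replicate has 1 list of regions and the series 1 combined list, on WormBase WS220, per the file headers. The program and method behind them are named in the source column as spp_via_IDR (the SPP peak caller, with the irreproducible discovery rate). Not given in the sources used here are the aligner, versions, thresholds, use of the input and way of combining replicates. In the authors' deposited replicate lists the score was read as −log10 of a q value, because the highest score equals −log10(1/(2k − 1)) for the k regions that share it (271 in replicate 1 and 236 in replicate 2). In the deposited combined list the relation gives 244 regions against 230 found, so there the score was left as a score with no unit. Both the scores and the order numbers come from the authors. They served to rank and filter regions within a list, and order numbers were also compared between lists.

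Overlap meant at least 1 bp, and the span of a chromosome was the largest region end in any list. No region was treated as a replicate and no p-value was computed. Shares have 95% Wilson intervals, differences Newcombe intervals and densities exact Poisson intervals. The depth is unknown. The overlap and merging steps were tested on simulated lists. Python 3.11.15, numpy 2.4.6, scipy 1.17.1, pandas 2.3.3, statsmodels 0.14.6 and matplotlib 3.10.9 were used.

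The members, lists and named regions were chosen with earlier results of these data known. Named were the X regions in the first 25 combined places, the next 5, the 5 shared X regions outside the combined list with the smallest sum of order numbers, the 3 longest gaps, the 3 best placed X regions without a partner in each list, and repeated combined regions. The regions less than 5 kb apart and the neighbours of the strongest sites were chosen after their values were seen. The gene table at hand belongs to another build (WBcel235), so no gene was assigned. Alternatives were other overlap, merging, strength, centre and replicate choices.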

Additional observations from a re-analysis of the deposited data

How the results depend on the processing

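Of 42 alternatives to 9 results, 4 of them added after the data were seen, 32 stayed within the interval of the reported value (or within 1.5 times a count), 10 moved and 0 reversed. A reversal could be recorded only for the share of narrow combined regions. The reported intervals of the other differences among the 9 results included 0. The difference in replicate 1 regions found again, X against autosomes, changed sign from −1.87 to 0.417 points with a replicate 2 list as long as that of replicate 1. Both intervals included 0. The number of shared X regions fell to 211 with the better placed 50% of each list and to 288 with a replicate 2 list as long as that of replicate 1, and left to a single list it was 1453 to 3700. The share of shared X regions in the middle 50% was 45.6 to 46.1% with a single replicate. In a window narrowed to the central 33.3% of the span it was 26.5%, which follows from the window. Shared regions per Mb on X relative to the autosomes were 1.27 (0.913 to 1.77) with q values no higher than 0.05 in each replicate (44 X regions), against 0.930 (0.846 to 1.02) as reported. Both intervals included 1. The median gap between combined X regions was 396 kb in their better placed 50%, as fewer regions make longer gaps. The rank correlation of the places was 0.784 over regions of the combined list, and the cause was not tested. The share of combined X regions in the middle, relative to the autosomes, was −10.6 points as reported, −6.69 without chromosome V and −16.4 and −15.8 points with the 322 strongest regions of replicate 2 and replicate 1 alone, where the intervals (−28.8 to −2.52 and −27.8 to −2.59) no longer included 0. The share with a q value no higher than 0.05 was 2.34 points higher on X than on the autosomes as reported (interval including 0). Intervals above 0 were found for either replicate in place of both (3.70, 0.152 to 7.64) and in the replicate 1 list alone (1.70, 0.437 to 3.16). In the replicate 2 list alone the difference was 0.309 points (−0.230 to 0.930). The interval also included 0 with 50% overlap (2.54, −0.454 to 6.18), with the better placed 50% of each list (5.19, −0.275 to 11.5) and with lists of equal length (3.45, −0.673 to 8.33). No paired analysis was possible because the input samples had no values analysed here and no test between samples was made. With no read counts, depth cannot be used to judge which weak regions are real.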
